A study of Homo sapiens with 18 samples.

Results

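The response of the glioblastoma line T98G to a CRISPR guide against DDA1 was set against the response of the line LN229 to the same guide, gene by gene. The members were chosen by the sample titles, which gave 12 of the 18 libraries of the series, with 3 libraries in each of 4 groups. The groups were LN229 with the control guide (sgCon), LN229 with the DDA1 guide (sgDDA1), T98G with sgCon and T98G with sgDDA1. Both are established lines derived from human glioblastoma, labelled as glioma, and all cells were cultured in DMEM containing 10% fetal bovine serum. The labels do not say how the guides were delivered, whether the cells were clones or pools, how long after delivery RNA was taken, or whether each group's 3 libraries stem from independent cultures. The p-values rest on the spread between libraries, and that spread may be technical only.

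DDA1 is a small partner of DDB1, the adaptor of CRL4 ubiquitin ligases, and it is found with DET1 and COP1, which pass substrates to the ligase. CRL4 ligases mark proteins of DNA repair, replication and transcription for breakdown by the proteasome. The series title places phosphorylation of DDA1 by mTORC1, the kinase complex that senses amino acids and growth factors, in DNA repair and glioblastoma progression. The RNA level of a gene cut by a guide can stay up even where its reading frame is lost, and protein was not analysed here.

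Levels are given as CPM, counts scaled to the size of each library with TMM factors and not divided by gene length, and a response is the log2 fold change of sgDDA1 over sgCon. The interaction is the T98G response minus the LN229 response, also on the log2 scale, so a negative value means that the response was lower in T98G. A gene is called when its adjusted p (edgeR quasi-likelihood test, Benjamini-Hochberg over all 23082 genes tested) is under 0.05. Library totals were 48166106 to 55062580 counts, apart from LN229 sgCon 1 with 94063055. Mitochondrially encoded RNA took 5.16% to 5.75% of the counts in LN229 sgCon and 6.20% to 6.43% in LN229 sgDDA1, against 4.20% to 4.53% and 5.59% to 5.68% in T98G.

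The labels were checked against markers of the lines before the guides were compared. CDKN2A, a cell cycle inhibitor gene recorded as deleted in both lines, was at 55.5 CPM in LN229 sgCon and 58.6 CPM in LN229 sgDDA1, against 0.427 and 0.366 CPM in T98G, so the libraries labelled LN229 go against this marker. MGMT, the alkyltransferase gene recorded as silenced in LN229 and expressed in T98G, was at 0.0459 and 0 CPM in the LN229 groups and at 7.11 and 6.98 CPM in T98G. SOX2, a neural progenitor factor, was at 19.1 CPM in LN229 sgCon and 0.13 CPM in T98G sgCon, while the adhesion receptor CD44 was at 3.52 and 2420 CPM. The glial markers GFAP and S100B were at or below 0.779 CPM in every library. LN229 and T98G name libraries by their labels throughout. The control libraries labelled U118-MG, which are not part of these comparisons, correlated more closely with the LN229 groups than with their own sgDDA1 group (r = 0.806 to 0.825 over 24418 genes). Each was closer to LN229 sgDDA1 (0.952, 0.972 and 0.976) than to LN229 sgCon (0.942, 0.966 and 0.967). They also carried several of the genes that rose in LN229, as given with those genes. DDA1 itself was not lowered in these U118-MG-labelled controls. Scaled with all 18 libraries, it was at 71.8, 56 and 50.1 CPM there. That compares with 47.6 to 49.2 CPM in LN229 sgCon and 32.1 to 34.8 CPM in LN229 sgDDA1.

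Summed markers of other cell types were higher with sgDDA1 in LN229. The summed level of 9 fibroblast and pericyte markers was 40.7 to 43.8 CPM in LN229 sgCon and 76.6 to 85 CPM in LN229 sgDDA1, and 370 to 397 against 357 to 362 CPM in T98G. For 7 neuronal markers the sums were 52.8 to 54.9 and 85.7 to 89.9 CPM in LN229, and 40.5 to 42.4 and 30.9 to 33.8 CPM in T98G. For 7 epithelial markers they were 81.2 to 87 and 136 to 140 CPM in LN229, and 97.1 to 102 and 76.1 to 81.1 CPM in T98G. Single genes carried most of the first and last of these LN229 sums, with NOTCH3 at 28.6 and 65.1 CPM and KRT8 at 44.9 and 97.3 CPM, while KRT18 was at 32.6 and 31.8 CPM. Leukocyte and endothelial markers summed to no more than 5.1 and 3.01 CPM in any library, and the T-cell marker CD3E was at 0 in all T98G libraries. The part of these markers in the differences described here was not tested, and in bulk RNA fewer cells of a type and less RNA per cell cannot be told apart.

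The targeted gene, DDA1 (ENSG00000130311), lies on the plus strand of chromosome 19 from 17309518 to 17323301 in GRCh38. In LN229 it was at 48.8, 50.7 and 50.4 CPM with sgCon and at 35.3, 33.1 and 35.9 CPM with sgDDA1. In T98G it was at 63.2, 70.5 and 69.1 CPM with sgCon and at 58.2, 61.7 and 57.3 CPM with sgDDA1. In both lines all 3 sgDDA1 libraries lay below all 3 controls, by a smaller step in T98G. The response was -0.52 in LN229 (SE 0.05, edgeR adjusted p = 9.22e-11) and -0.20 in T98G (SE 0.05, adjusted p = 0.00107). The interaction was 0.33 (SE 0.07, 95% interval 0.19 to 0.47, adjusted p = 0.000209). That interaction was not called when all 18 libraries set the spread (adjusted p = 0.132) or when it was tested against a 1.5-fold difference (adjusted p = 1). The 1.5-fold test could not call it, since the estimate is smaller than 1.5-fold.

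The guide response differed between the lines in 9044 genes (39.2%). Of the 23082 genes tested, 50.4% were called in LN229 (28.9% higher and 21.5% lower with sgDDA1) and 43.4% in T98G (21.6% higher and 21.8% lower). The 3 libraries of one guide all lay above those of the other in 56.8% of genes in LN229 and in 50.9% in T98G. The interaction was called higher in T98G for 18.3% (4217 genes) and lower for 20.9% (4827 genes). Scaling by library totals alone moved that split to 3106 higher and 5923 lower and the median interaction of all genes from -0.02 to -0.12. By comparison, the lines differed from each other in 77.9% of genes with sgCon (38.1% higher and 39.8% lower in T98G) and in 78.2% with sgDDA1 (38.7% higher and 39.6% lower). Across the 13029 genes with a mean of at least 1 CPM in both lines the responses had a Pearson correlation of 0.20 and a Spearman correlation of 0.27, a description over genes, which are not independent. The SD of the response over these genes was 0.50 in LN229 and 0.46 in T98G, and that of the interaction was 0.61. The SD of the difference between lines was 1.40 with sgCon and 1.35 with sgDDA1.

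Genes were sorted into classes by these calls. Shared genes, called in both lines with the same sign, numbered 4386 (19% of genes tested), of which 2286 rose (9.9%) and 2100 fell (9.1%). The interaction was called for 1756 of these shared genes (7.61% of genes tested) and not for 2630 (11.4%). Shared thus refers to the sign of the response and not to its size. Opposite genes, called in both lines with opposite signs and with a called interaction, numbered 2181 (9.45%). Of these, 1326 rose in LN229 and fell in T98G (5.74%), and 855 did the reverse (3.7%). LN229-only genes, called in LN229, not called in T98G and with a called interaction, numbered 2857 (12.4%), with 1562 rises (6.77%) and 1295 falls (5.61%). T98G-only genes, defined the same way, numbered 2022 (8.76%), with 1018 rises (4.41%) and 1004 falls (4.35%). The word "only" refers to the calls, since a missed threshold does not show that a gene was unresponsive. A further 2208 genes were called in LN229 alone and 1424 in T98G alone without a called interaction, and 228 had a called interaction with no call in either line. The remaining 7776 genes (33.7%) had no call.

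Most of these responses were small. Among shared genes 328 moved at least 2-fold in both lines, of which 299 rose and 29 fell, and the 95% interval of the interaction lay within 1.5-fold either way for 3096. Among opposite genes 240 moved at least 2-fold in each line, and 223 of these rose in LN229. A response of at least 2-fold together with an interaction of at least 2-fold was seen in 720 LN229-only genes, of which 626 rose. The same was seen in 488 T98G-only genes, of which 192 rose. Testing against a 1.5-fold difference gave 276 shared, 841 LN229-only, 618 T98G-only and 167 opposite genes. Of these, 276, 464, 307 and 167 were in the same class by the calls above. Letting all 18 libraries set the spread gave 1751, 1746, 1247 and 746, of which 1747, 1124, 763 and 741 were in the same class by those calls.

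**Figure D1:**
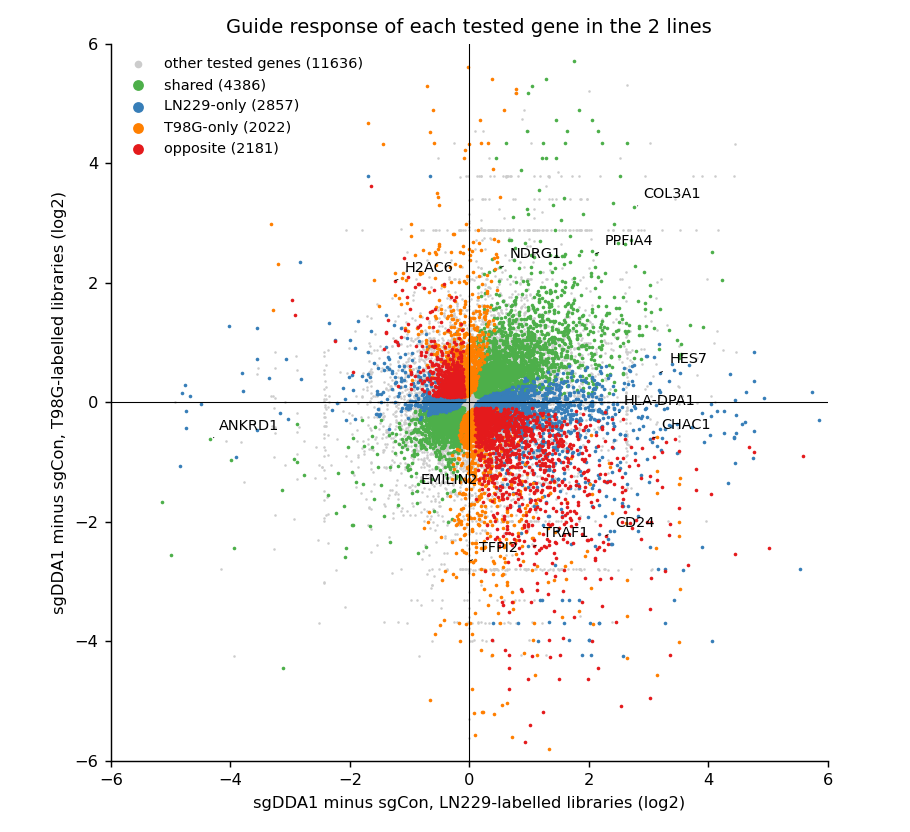
Each point is a tested gene, with its log2 response in LN229 on the x axis and in T98G on the y axis, coloured by class; 12 genes lie outside the axes, which end at 6 on the log2 scale. Shared genes fill the upper right and lower left, opposite genes the other corners, and the 1326 opposite genes that rose in LN229 reach further from the centre than the 855 that fell.

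The classes took up different shares at different expression levels. Opposite genes made up 1.61% of genes with a mean under 1 CPM, 8.47% from 1 to 10 CPM, 14% from 10 to 100 CPM and 21.4% above 100 CPM. Shared genes made up 2.55%, 15.2%, 32.1% and 36.1% of the same ranges, LN229-only genes 5.39%, 14.5%, 16.1% and 17.5%, and T98G-only genes 3.7%, 8.75%, 12.7% and 12%. More deeply counted genes have smaller errors, and the part of depth in these shares was not tested. Protein-coding genes made up 90.9% of shared and 92.7% of opposite genes, against 66.4% of all genes tested. LN229-only and T98G-only genes were 82.8% and 81.4% protein-coding. A mean of at least 1 CPM in both lines was reached by 74% of LN229-only and 74.7% of T98G-only genes, so most of these were expressed in the line without the call. In LN229-only rises that share was 60.6%. A separate fit of the 13031 genes with a mean of at least 1 CPM in both lines gives a background for the gene lists below. In that fit 4646 genes rose and 4427 fell in LN229, and 3971 rose and 4456 fell in T98G. The interaction was called higher in T98G for 3628 and lower for 4009.

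**Figure D2:**
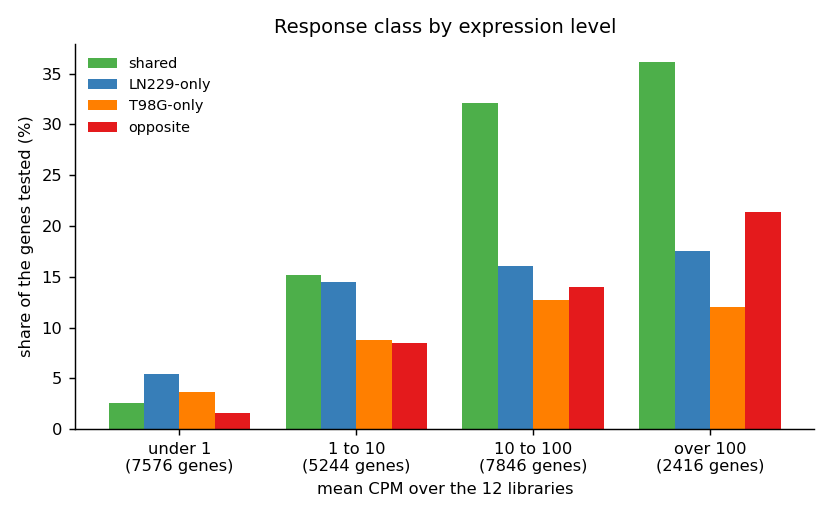
Bars give the share of tested genes in each response class, in percent on the y axis, by the mean CPM over the 12 libraries on the x axis. The share of opposite genes goes from 1.61% in the lowest range to 21.4% in the highest.

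Shared rises were led, among protein-coding genes with at least 1 CPM in both lines and libraries that did not overlap, by COL3A1, SSPOP, SERPING1 and PPFIA4. COL3A1, a fibrillar collagen (chromosome 2, 188974320 to 189012746, plus strand), was at 0.562, 0.543 and 0.761 CPM with sgCon and at 4.79, 4.71 and 2.93 CPM with sgDDA1 in LN229. In T98G it was at 1.57, 2.19 and 1.63 CPM with sgCon and at 16.9, 17.7 and 17.4 CPM with sgDDA1. All sgDDA1 libraries lay above all controls of their line, with responses of 2.76 (SE 0.19, edgeR adjusted p = 4.71e-14) and 3.27 (SE 0.15, adjusted p = 5.3e-18) and an interaction of 0.51 (SE 0.26) that was not called (adjusted p = 0.118). SERPING1, an inhibitor of the complement system, rose by 2.43 in LN229 and 2.98 in T98G, and SSPOP, at the SCO-spondin locus, by 2.70 and 2.72. PPFIA4, a liprin of synapses, rose from 6.24, 6.69 and 5.38 CPM to 27.4, 25 and 27.4 CPM in LN229 and from 2.72, 2.89 and 3.41 CPM to 15.5, 16.6 and 18.4 CPM in T98G. Its response was larger in T98G by 0.37 (SE 0.14, adjusted p = 0.0354). Scaled with all 18 libraries, COL3A1 was at 3.91 to 5.83 CPM and PPFIA4 at 24.2 to 30.2 CPM in the control libraries labelled U118-MG, close to LN229 sgDDA1 (2.84 to 4.64 and 24.3 to 26.6 CPM) and above LN229 sgCon (0.526 to 0.738 and 5.22 to 6.49 CPM). The part of this likeness in the LN229 responses was not tested.

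Shared falls had median responses of -0.33 in LN229 and -0.29 in T98G, against 0.59 and 0.55 for shared rises. EMILIN2, an elastin-associated matrix glycoprotein (chromosome 18, 2847030 to 2915993, plus strand), fell from 78.3, 77 and 70.7 CPM to 37.3, 40.4 and 38.5 CPM in LN229, and from 8.78, 8.83 and 7.98 CPM to 2.39, 2.92 and 3.59 CPM in T98G. No sgDDA1 library overlapped the controls of its line, with responses of -0.96 and -1.52 and an interaction of -0.56 (SE 0.12, edgeR adjusted p = 0.000247). ADI1, an enzyme of methionine salvage, fell from 114, 108 and 109 CPM to 34.2, 40.3 and 39.7 CPM in LN229 and from 77.8, 80.4 and 78 CPM to 46.6, 42.8 and 40.8 CPM in T98G. It fell further in LN229, with an interaction of 0.68 (SE 0.07, adjusted p = 3.08e-09). The lysosomal sulfatase ARSB fell by 0.93 and 0.85 on the log2 scale with an interaction of 0.08 (SE 0.09, adjusted p = 0.517), and the ciliary gene CFAP251 by 0.87 and 0.86.

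LN229-only rises are described by protein-coding genes with at least 1 CPM in both lines. That level was reached by 946 of the 1562 rises, while 284 reached it in LN229 alone and 103 in T98G alone. HLA-DPA1, a class II antigen-presenting chain, rose in LN229 from 1.1, 0.756 and 0.799 CPM to 5.27, 5.05 and 4.75 CPM and was at 18.1, 15 and 17.8 CPM with sgCon and 14.9, 15.1 and 14.6 CPM with sgDDA1 in T98G. The LN229 libraries separated by guide and those of T98G overlapped, with responses of 2.44 (SE 0.14) and -0.19 (SE 0.10, edgeR adjusted p = 0.105) and an interaction of -2.63 (SE 0.17, adjusted p = 1.78e-14). ELFN2, a leucine-rich repeat membrane protein, rose in LN229 from 1.98, 2.42 and 1.94 CPM to 12.4, 11.9 and 12.5 CPM, and in T98G was at 36, 37 and 38.2 CPM against 35.8, 34.9 and 35 CPM. The interaction for ELFN2 was -2.63 (SE 0.11, adjusted p = 1.73e-19). The collagen gene COL16A1 and HES7, a Notch target of the segmentation clock, had interactions of -2.54 (SE 0.21) and -2.70 (SE 0.38). HES7 was low throughout, at 0.0776 to 0.342 CPM in LN229 sgCon and 1.67 to 2.15 CPM in LN229 sgDDA1. In T98G it was at 1.25, 1.87 and 1.63 CPM with sgCon and 2.17, 2.54 and 2.02 CPM with sgDDA1. Those T98G groups did not overlap either, but the response of 0.50 was not called (edgeR adjusted p = 0.0815). In the control libraries labelled U118-MG these genes were at the level of LN229 sgDDA1 or above it for HES7 (4.05 to 6.01 CPM), HLA-DPA1 (6.56 to 9.41 CPM) and COL16A1 (9.41 to 10.6 CPM), and near it for ELFN2 (8.69 to 14.4 CPM).

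LN229-only falls with at least 1 CPM in both lines were led by CYP27B1, NAGPA, GTF2IRD2B and POMZP3. CYP27B1, the hydroxylase that activates vitamin D, fell in LN229 from 7.91, 6.65 and 7.71 CPM to 3.77, 4.09 and 3.58 CPM, and in T98G was at 5.68, 4.62 and 6.22 CPM with sgCon and 6.9, 5.24 and 4.67 CPM with sgDDA1. The T98G libraries overlapped, and the interaction was 0.99 (SE 0.19, edgeR adjusted p = 7.32e-05). NAGPA, which uncovers the sorting tag of lysosomal enzymes, fell in LN229 from 13.2, 12.4 and 12.3 CPM to 6.16, 6.63 and 6.07 CPM, against 12.3, 13.3 and 12.3 CPM and 11.3, 12.1 and 13.2 CPM in T98G. Its interaction was 0.96 (SE 0.12, adjusted p = 1.03e-07). In the control libraries labelled U118-MG, CYP27B1 was at 6.15 to 7.21 CPM and NAGPA at 10.1 to 14.9 CPM, above LN229 sgDDA1 in all 3. GTF2IRD2B and POMZP3 had interactions of 0.93 and 0.92, and both have near-identical copies elsewhere in the genome, so their counts are uncertain. None of CYP27B1, GTF2IRD2B and POMZP3 was called when tested against 1.5-fold.

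T98G-only rises were led by ADGRV1, an adhesion receptor, and SLC6A15, a transporter of neutral amino acids (chromosome 12, 84859488 to 84913615, minus strand). SLC6A15 rose in T98G from 8.56, 7.99 and 8.36 CPM to 48.5, 50.4 and 48.1 CPM, while LN229 held 156, 145 and 141 CPM with sgCon and 146, 148 and 145 CPM with sgDDA1. LN229 libraries overlapped at a level above any T98G library, with responses of -0.01 (SE 0.04, edgeR adjusted p = 0.88) and 2.56 (SE 0.05) and an interaction of 2.57 (SE 0.07, adjusted p = 4.2e-24). ADGRV1 rose in T98G from 1.59, 1.59 and 1.93 CPM to 9.17, 12 and 11.7 CPM, against 26.2, 24.4 and 23.5 CPM and 28.1, 24.8 and 25.2 CPM in LN229. The protocadherin PCDH7 rose from 18.1, 19.8 and 19.4 CPM to 78.1, 78 and 80.1 CPM in T98G, with an interaction of 2.13 (SE 0.08). The lysophospholipase PNPLA7 had an interaction of 2.18 (SE 0.22).

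T98G-only falls included TFPI2, a secreted inhibitor of serine proteases (chromosome 7, 93885396 to 93890991, minus strand). In T98G it fell from 390, 396 and 364 CPM to 61.6, 63.2 and 58 CPM, and LN229 held 1.83, 2.25 and 2.09 CPM with sgCon and 1.48, 2.39 and 2.21 CPM with sgDDA1. The groups overlapped in LN229 and stood far apart in T98G, with an interaction of -2.67 (SE 0.15, edgeR adjusted p = 3.39e-16). RASGRP3, a Ras exchange factor, fell from 25.3, 25.7 and 24.1 CPM to 5.68, 4.42 and 4.5 CPM, with LN229 at 1.36 to 1.91 CPM, and the orphan receptor NR4A3 from 8.82, 8.45 and 7.92 CPM to 1.66, 1.83 and 1.46 CPM. TMEM200C was at 2.52, 2.83 and 2.73 CPM with sgCon and at 0.265, 0.714 and 0 CPM with sgDDA1 in T98G, and its interaction of -3.50 (SE 0.43) rests on these low counts. In LN229 it was at 2.73, 2.72 and 2.85 CPM with sgCon and 4.49, 3.28 and 3.6 CPM with sgDDA1. Those LN229 groups did not overlap either, but the response of 0.45 was not called (edgeR adjusted p = 0.12).

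Opposite genes that rose in LN229 were led by WNT7B, LSAMP, CD24 and DLX3. CD24, a glycosylphosphatidylinositol-anchored sialoglycoprotein (chromosome 6, 106969831 to 106975627, minus strand), rose in LN229 from 0.894, 0.834 and 0.799 CPM to 5.29, 3.76 and 3.56 CPM and fell in T98G from 84.2, 94.1 and 88.5 CPM to 18.6, 19.4 and 18.9 CPM. No groups overlapped within a line, and the gap between the lines was smaller with sgDDA1 than with sgCon. The responses were 2.29 (SE 0.14, edgeR adjusted p = 3.23e-15) and -2.23 (SE 0.07, adjusted p = 2.44e-22), and the interaction was -4.52 (SE 0.15, adjusted p = 2.07e-21). WNT7B, a secreted ligand, rose from 0.352, 0.407 and 0.381 CPM to 1.86, 1.47 and 2.11 CPM in LN229 and fell from 3.81, 3.27 and 3.49 CPM to 0.619, 0.401 and 0.882 CPM in T98G. The order of the lines turned over for WNT7B, which was higher in T98G with sgCon and higher in LN229 with sgDDA1. LSAMP, a neural adhesion protein, rose from 0.472, 0.504 and 0.476 CPM to 2.17, 2.4 and 2.28 CPM in LN229 and fell from 2.62, 1.87 and 2.31 CPM to 0.376, 0.446 and 0.516 CPM in T98G. Its levels crossed in the same way. The homeobox gene DLX3 had responses of 3.35 and -2.22. In the control libraries labelled U118-MG, CD24 was at 3.66 to 4.57 CPM, LSAMP at 2.04 to 3.07 CPM and DLX3 at 3.13 to 5.64 CPM, all above LN229 sgCon.

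Opposite genes that fell in LN229 were led by replication-dependent histone genes, which supply histones during S phase and whose transcripts mostly end in a stem-loop rather than a poly(A) tail. H2AC6 (chromosome 6, 26124145 to 26139116, plus strand) fell in LN229 from 2.72, 2.37 and 2.09 CPM to 1.17, 1.06 and 0.872 CPM and rose in T98G from 13.8, 13.1 and 14.3 CPM to 55.8, 56.8 and 57 CPM. The groups separated in both lines, with responses of -1.24 (SE 0.13) and 2.04 (SE 0.07) and an interaction of 3.28 (SE 0.15, edgeR adjusted p = 3.21e-18). H2BC4 (26114873 to 26123926, minus strand), its divergent neighbour, fell from 1.52, 1.18 and 1.48 CPM to 0.649, 0.762 and 0.705 CPM in LN229 and rose from 1.79, 1.89 and 2.41 CPM to 5.95, 5.84 and 6.15 CPM in T98G. H3C10 fell by 1.03 on the log2 scale in LN229 and rose by 2.10 in T98G. N4BP2L1, the other gene so named, had responses of -1.21 and 1.01.

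All 14 measured histone genes of 16 listed had a positive interaction, and 10 were called higher in T98G and 0 lower. In LN229, 0 rose and 7 fell with a median response of -0.67, and in T98G 12 rose and 0 fell with a median of 1.73. The medians over all genes tested were 0.07 in LN229, 0 in T98G and -0.02 for the interaction. The 7 opposite genes were H2AC6, H3C10, H2BC21, H2BC4, H2BC12, H1-2 and H2BC5, of which H1-2 had overlapping libraries in LN229. The labels do not state whether poly(A) RNA was selected, histone genes share near-identical copies, and the part of either in these values was not tested.

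The promoters of these histone genes are shown because all 4 genes were opposite and because H2AC6 and H2BC4 face each other across one stretch. The upstream windows of 250 bases of the latter pair share 245 bases. Capitals mark CCAAT, searched on both strands, which 32.0% of all 35116 RefSeq promoter windows hold (GRCh38.p14) and 14 of the 15 windows of 13 matched histone genes (93.3%). A match describes letters only.
H2AC6 and H2BC4, chr6:26123927-26124144, plus strand: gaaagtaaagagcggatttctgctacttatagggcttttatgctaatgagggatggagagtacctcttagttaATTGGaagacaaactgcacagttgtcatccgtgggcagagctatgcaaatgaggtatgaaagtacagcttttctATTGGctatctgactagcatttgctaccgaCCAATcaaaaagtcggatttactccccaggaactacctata
H3C10, chr6:27809801-27810050, plus strand: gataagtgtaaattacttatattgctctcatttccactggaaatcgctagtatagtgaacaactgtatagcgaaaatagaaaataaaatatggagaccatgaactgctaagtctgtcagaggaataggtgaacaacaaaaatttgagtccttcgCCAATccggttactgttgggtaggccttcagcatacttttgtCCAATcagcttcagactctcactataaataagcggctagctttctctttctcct
H2BC21, chr1:149886683-149886932, minus strand: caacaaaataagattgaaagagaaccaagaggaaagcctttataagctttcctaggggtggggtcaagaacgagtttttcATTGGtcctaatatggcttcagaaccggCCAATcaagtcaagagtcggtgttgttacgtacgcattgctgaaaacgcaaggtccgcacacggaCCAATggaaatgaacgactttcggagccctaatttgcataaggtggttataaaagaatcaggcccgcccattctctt

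**Figure D3:**
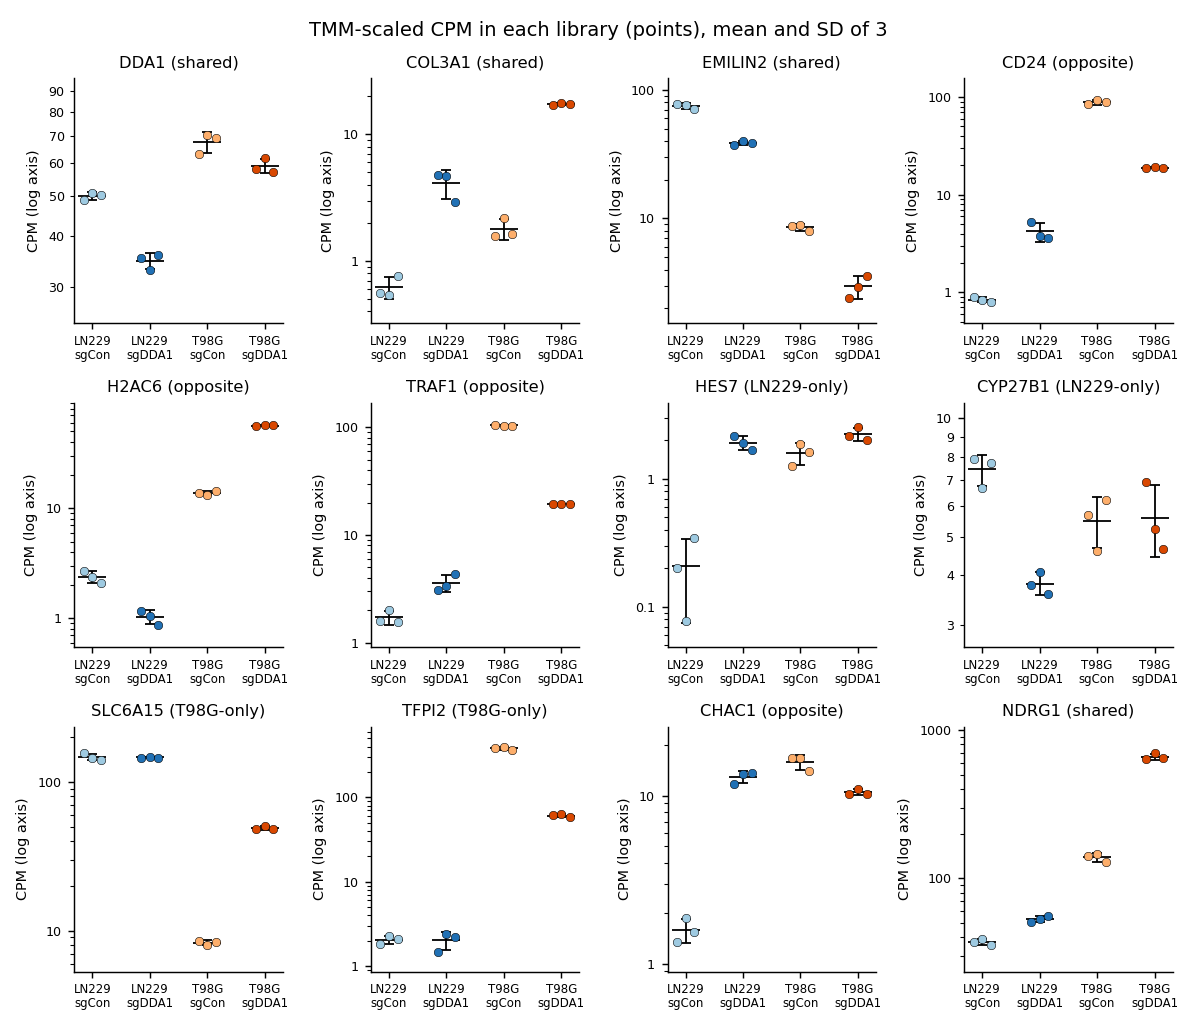
Points give TMM-scaled CPM in each library on a log axis for 12 named genes, with the mean and SD of 3 libraries as bars, for the 4 groups on the x axis. CD24 rises in LN229 and falls in T98G, H2AC6 does the reverse, and SLC6A15 and TFPI2 move in T98G while the LN229 groups overlap.

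Subunits of the CRL4 ligase and of the COP9 signalosome, which removes NEDD8 from cullins, mostly fell in LN229. Of 28 genes, 4 rose and 18 fell in LN229 (median -0.23), 6 rose and 10 fell in T98G (median -0.06), and the interaction was called higher in T98G for 19 and lower for 4 (median 0.22). With library totals alone as the scale the interaction counts were 9 and 6, and with all 18 libraries setting the spread they were 3 and 2, with 11 falls in LN229 and 4 in T98G. COPS8, a COP9 subunit, was at 86.1, 81 and 83.2 CPM and then 70, 77 and 69.4 CPM in LN229, and at 174, 184 and 177 CPM and then 254, 241 and 246 CPM in T98G. It fell in LN229 and rose in T98G without overlap, with an interaction of 0.68 (SE 0.06, edgeR adjusted p = 1.41e-11). The substrate receptor DCAF15 fell in LN229 alone (responses -0.52 and 0.04, interaction 0.56) and DCAF5 rose in T98G alone (-0.09 and 0.51, interaction 0.60). CUL4A, a cullin scaffold, fell in both (-0.30 and -0.29).

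Substrates of COP1 and DET1 and feedback genes of ERK signalling, 23 in all, showed mixed signs. In LN229, 13 rose and 4 fell, in T98G 11 rose and 6 fell, and the interaction was called higher in T98G for 7 and lower for 9. Among 13031 genes with at least 1 CPM in both lines, 3628 were called higher and 4009 lower, shares near those of the list. The list's median interaction of -0.22 was 0.04 without LN229 sgCon 1. Opposite genes numbered 7 (1 with all 18 libraries setting the spread), of which ETV4, FOSL1, CEBPB and SPRY2 rose in LN229 and fell in T98G, and SPRY1, JUN and PHLDA1 did the reverse. SPRY1, a feedback inhibitor of receptor signalling, had responses of -0.37 and 1.00 (interaction 1.37), and the transcription factor CEBPB had 0.88 and -0.21 (interaction -1.09). The pseudokinase TRIB2 rose in both lines (0.74 and 0.81).

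Genes of homologous recombination and the Fanconi anaemia pathway, which repair double-strand breaks and crosslinks, had lower responses in T98G than in LN229. Of 31 genes, 9 rose and 9 fell in LN229 (median 0.04), 2 rose and 21 fell in T98G (median -0.26), and the interaction was called lower in T98G for 18 and higher for 0 (median -0.23). With all 18 libraries setting the spread, 4 rose and 2 fell in LN229, 6 fell in T98G and 2 had an interaction call. FANCF, a core complex subunit, rose in LN229 alone (0.92 and -0.05). NBN, of the complex that senses breaks, was at 108, 106 and 102 CPM and then 61.4, 67.5 and 66.9 CPM in LN229, and at 141, 135 and 141 CPM and then 85.5, 88.5 and 87.2 CPM in T98G. The groups did not overlap in either line, and NBN fell by 0.69 and 0.68 on the log2 scale with an interaction of 0.01 (SE 0.06, edgeR adjusted p = 0.908).

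The other repair lists had interaction calls in both directions, as did expressed genes in general. Of 13031 genes with at least 1 CPM in both lines, the interaction was called higher in T98G for 3628 and lower for 4009. Of 35 end joining and damage checkpoint genes the interaction was called higher in T98G for 10 and lower for 9 (median -0.01), and of 35 excision and mismatch repair genes for 11 and 7 (median -0.02). With all 18 libraries setting the spread these counts were 1 and 3, and 3 and 2. H2AX, the histone variant that marks breaks, fell in LN229 from 33.8, 32.2 and 29.9 CPM to 16.1, 16 and 16.8 CPM and rose in T98G from 43.3, 46.9 and 44.1 CPM to 61.8, 62.9 and 66.1 CPM. Its interaction was 1.48 (SE 0.08, edgeR adjusted p = 8.06e-17). The checkpoint kinase gene CHEK2 had responses of 0.18 and -0.48, and the uracil glycosylase UNG had -0.74 and -0.17.

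In each line most replication genes fell, though not always the same genes, and most mitotic genes fell in LN229. Of 41 replication and S phase genes 25 fell and 4 rose in LN229 (median -0.18), and 28 fell and 3 rose in T98G (median -0.16). The interaction was called higher in T98G for 10 and lower for 8 (median 0.01), and 18 genes were shared. Of 13031 genes with at least 1 CPM in both lines it was called higher for 3628 and lower for 4009, and 4258 were shared. Among 38 G2/M and mitotic genes, 28 fell and 3 rose in LN229 (median -0.345), 19 fell and 6 rose in T98G (median -0.10), and the interaction was called higher in T98G for 20 and lower for 4. When all 18 libraries set the spread, 14 of the replication genes fell in LN229 and 11 in T98G, 14 of the mitotic genes fell in LN229 and 5 in T98G, and the mitotic interaction counts were 3 and 0. The cyclin CCNA2 fell in both lines (-0.63 and -0.52), and CDC20, an activator of the anaphase-promoting complex, fell further in LN229 (-0.75 and -0.13, interaction 0.62). The mitotic kinesin KIF20A (-0.43 and 0.26) and the helicase subunit MCM5 (-0.38 and 0.26) were opposite, as was the primase PRIM1 in the other sense (0.22 and -0.39).

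Genes of the ATF4 programme and amino acid supply, which ATF4 induces when amino acids are short or mTORC1 is active, rose in LN229 and mostly fell in T98G. Of 35 measured genes of 36, 29 rose and 2 fell in LN229 (median 0.65), 10 rose and 20 fell in T98G (median -0.21), and the interaction was called lower in T98G for 28 and higher for 2. The list held 17 opposite and 10 shared genes, or 9 and 1 with all 18 libraries setting the spread, when 13 fell and 1 rose in T98G. CHAC1, a glutathione-degrading enzyme (chromosome 15, 40952962 to 40956519, plus strand), rose in LN229 from 1.35, 1.86 and 1.54 CPM to 11.8, 13.5 and 13.6 CPM and fell in T98G from 16.8, 16.8 and 14.1 CPM to 10.3, 11 and 10.2 CPM. The lines stood far apart with sgCon and closer with sgDDA1, and the interaction was -3.67 (SE 0.15, edgeR adjusted p = 4.01e-19). ASNS, asparagine synthetase (chromosome 7, 97852118 to 97872542, minus strand), rose from 4.12, 3.55 and 3.92 CPM to 12.2, 13.1 and 15 CPM in LN229 and fell from 8.6, 8.15 and 9.13 CPM to 5.97, 6.87 and 6.43 CPM in T98G. PCK2, mitochondrial phosphoenolpyruvate carboxykinase, rose in both lines, by 2.44 and 0.20, with an interaction of -2.25 (SE 0.08). DDIT4, an inhibitor of mTORC1, rose by 2.13 and 0.30, the latter not called with all 18 libraries. ATF4 itself rose in both (0.60 and 0.23), and ATF5 fell in both (-1.63 and -0.57).

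Pieces of 30 bases from before a RefSeq start of CHAC1 and of ASNS are shown because these genes carry the widest opposite responses of the list that are named here. Capitals mark TGATGNAA, a core shared by many ATF4 and C/EBP response elements, searched on both strands. RefSeq starts lie inside the longer GENCODE spans given for these genes, so both pieces fall within those spans. The motif stands in 3.14% of all RefSeq promoter windows of 250 bases and in 5 of 46 windows (10.9%) of the 29 genes of the list that were matched.
CHAC1, chr15:40953251-40953280, plus strand: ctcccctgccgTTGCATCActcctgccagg
ASNS, chr7:97872458-97872487, minus strand: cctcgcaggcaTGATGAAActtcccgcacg

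Unfolded protein response and chaperone genes fell in both lines with like medians. Of 29 genes 25 fell and 3 rose in LN229 (median -0.49), and 28 fell and 0 rose in T98G (median -0.50). Shared genes numbered 24. The median interaction was 0.06, with the interaction called higher in T98G for 12 genes and lower for 9. The chaperone genes HSPH1 (-1.13 and -0.74) and HSPA1B (-1.15 and -0.83) fell in both, the latter with counts that its copy HSPA1A may share. DNAJB9, a cochaperone of the endoplasmic reticulum, fell in T98G alone, from 58.8 ± 5.81 to 17.2 ± 0.897 CPM (mean ± SD, n = 3), with an interaction of -1.68 (SE 0.10). Proteasome subunits fell in both lines. Of 31 genes 29 fell and 0 rose in LN229 (median -0.43), 27 fell and 0 rose in T98G (median -0.25), and 26 were shared. The interaction was called higher in T98G for 15 genes and lower for 1. When all 18 libraries set the spread, 22 fell in LN229, 10 fell in T98G and 1 had an interaction call. PSMC1 and PSMB2, subunits of the cap and the core, fell by 0.49 and 0.47 in LN229 and by 0.44 and 0.41 in T98G on the log2 scale.

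Cytosolic ribosomal protein genes moved in opposite directions by small steps. Of 39 genes 33 rose and 1 fell in LN229 (median 0.205), 0 rose and 34 fell in T98G (median -0.20), and 29 were opposite and 0 shared. The interaction was called lower in T98G for 37 and higher for 1 (median -0.42). RPSA, a protein of the small ribosomal subunit, was at 1640, 1660 and 1600 CPM and then 1780, 2060 and 1980 CPM in LN229, and at 495, 476 and 479 CPM and then 322, 317 and 340 CPM in T98G. The groups did not overlap in either line, and the interaction was -0.82 (SE 0.06, edgeR adjusted p = 3.01e-13). RPS12 had responses of 0.37 and -0.45, and RPL30 had 0.38 and -0.26. When all 18 libraries set the spread, 6 rose in LN229, 6 fell in T98G, 12 had an interaction call and 0 were opposite. Ribosomal protein genes have many processed copies in the genome, which can take part of their reads.

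Genes of glycolysis and the hypoxia response rose in T98G. Of 35 genes 30 rose and 1 fell there (median 0.635), against 16 and 13 in LN229 (median 0.07), and the interaction was called higher in T98G for 24 and lower for 4 (median 0.74). Opposite genes numbered 13 (8 with all 18 libraries setting the spread), among them GAPDH (-0.16 and 0.42), ALDOA (-0.28 and 0.78), TPI1 (-0.29 and 0.64), ENO1 (-0.48 and 0.39), PKM (-0.30 and 0.30) and LDHA (-0.24 and 0.63), all glycolytic enzymes that fell in LN229 and rose in T98G. These were named after their values were seen. NDRG1, a stress-induced gene, was at 37, 39.1 and 35.6 CPM and then 51.1, 53 and 56 CPM in LN229, and at 141, 146 and 128 CPM and then 642, 699 and 648 CPM in T98G. It rose in both lines and by more in T98G, with an interaction of 1.74 (SE 0.07, edgeR adjusted p = 3.64e-20). ADM, the vasodilator adrenomedullin, had responses of -0.98 and 0.48. The carbonic anhydrase CA12 (1.61 and 2.01) and the neuronal enolase ENO2 (1.3 and 1.4, interaction 0.10, SE 0.09) rose in both, whereas the aldolase ALDOC rose in LN229 from 6.99, 6.46 and 6.32 CPM to 15.8, 15.8 and 16.6 CPM and was at 1.33 to 1.75 CPM and 0.989 to 1.33 CPM in T98G.

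Pieces of 30 bases from before the RefSeq starts of ENO2 and ALDOC, which also fall within the GENCODE spans of these genes, are shown because these glycolytic genes hold the same short motif and fell into different classes. Capitals mark ACGTG, the core of hypoxia response elements and part of the E-box CACGTG, in which both strands match. ACGTG stands in 18.5% of all promoter windows and in 25 of 47 windows (53.2%) of the 30 genes of the list that were matched.
ENO2, chr12:6914449-6914478, plus strand: cacccgcgctcgtACGTGcgcctccgccgg
ALDOC, chr17:28577116-28577145, minus strand: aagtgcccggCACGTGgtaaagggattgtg

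All 13 mitochondrially encoded protein genes rose in T98G (median 0.50), and 8 rose and 4 fell in LN229 (median 0.20). The interaction was called higher in T98G for 10 (6 with all 18 libraries setting the spread). In LN229 the counts were 4 rises and 0 falls with all 18 libraries, and 8 rises and 0 falls with GC and length offsets. MT-ND4, of respiratory complex I, was at 4430, 4650 and 4850 CPM and then 4330, 4570 and 4260 CPM in LN229, and at 5070, 4450 and 4770 CPM and then 7910, 7810 and 8210 CPM in T98G. Only the T98G groups stood apart, with an interaction of 0.83 (SE 0.06, edgeR adjusted p = 1.95e-13). Of 34 nuclear genes of oxidative phosphorylation 16 fell and 3 rose in LN229, and 14 fell and 5 rose in T98G. The interaction was called higher in T98G for 8 and lower for 7 (median 0.02). Among 13031 genes with at least 1 CPM in both lines these counts were 3628 and 4009. When all 18 libraries set the spread, 4 of the 34 nuclear genes fell in LN229, 5 fell in T98G and 0 rose in either.

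**Figure D4:**
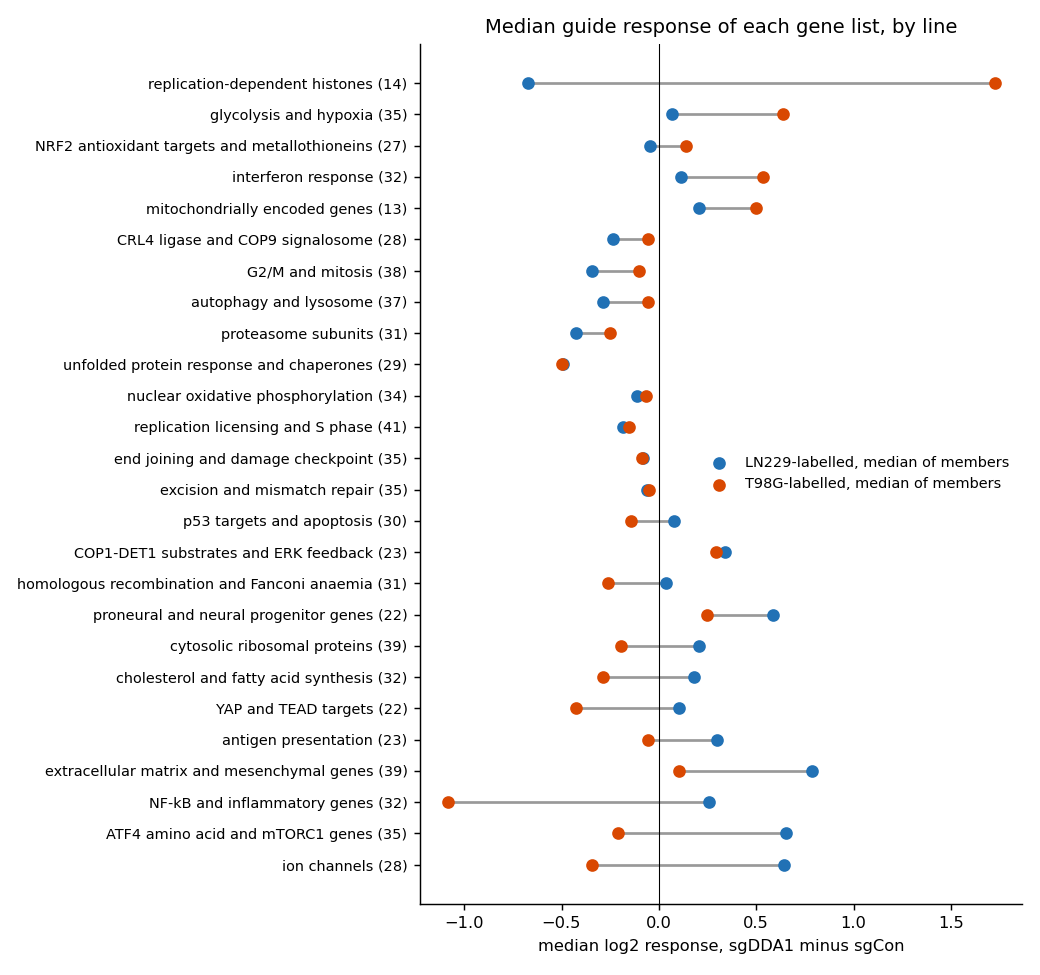
Points give the median log2 response over the measured members of each gene list, whose number stands in brackets, in LN229 and in T98G, joined by a line and ordered by the median interaction. Histones and ion channels lie at the ends, and the medians of the unfolded protein response are -0.49 and -0.50.

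NF-kB and inflammatory genes fell in T98G. Of 32 measured genes of 35, 24 fell and 2 rose there (median -1.085), against 8 falls and 11 rises in LN229 (median 0.26), and the interaction was called lower in T98G for 19 and higher for 3 (median -0.92). TRAF1, an adaptor of TNF receptors (chromosome 9, 120902393 to 120929173, minus strand), was at 1.58, 2.02 and 1.56 CPM and then 3.06, 3.38 and 4.32 CPM in LN229, and at 105, 103 and 103 CPM and then 19.4, 19.4 and 19.5 CPM in T98G. Its groups were separate in both lines, in opposite order, with an interaction of -3.50 (SE 0.13, edgeR adjusted p = 2.77e-20). The chemokine CCL5 fell in T98G from 880, 856 and 790 CPM to 175, 158 and 148 CPM and rose in LN229 from 85.5, 96.2 and 96.8 CPM to 127, 172 and 156 CPM, so that the lines overlapped with sgDDA1. BIRC3, an inhibitor of apoptosis, had responses of 0.67 and -2.19. NFKB1 (-0.92 and -0.60) and the inhibitor NFKBIA (-0.47 and -0.40) fell in both lines.

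Interferon response genes went the other way in T98G, where 22 of 32 rose and 8 fell (median 0.53), against 13 and 4 in LN229 (median 0.115). The interaction was called higher in T98G for 18 and lower for 12 (median 0.37), or for 12 and 7 with all 18 libraries setting the spread. The chemokine CXCL11 fell in T98G from 157, 164 and 157 CPM to 26.4, 24.9 and 23.3 CPM and rose in LN229 from 1.25, 1.2 and 1.07 CPM to 1.52, 2.27 and 1.74 CPM. Its interaction was -3.33 (SE 0.15, edgeR adjusted p = 3.47e-18), and CXCL10 had -1.95. BST2, a tether of enveloped viruses, rose in both lines (2.57 and 0.50), as did IFI6 (0.82 and 0.78). Of 23 antigen presentation genes 15 rose and 2 fell in LN229 (median 0.30), 6 rose and 9 fell in T98G (median -0.06), and the interaction was called lower in T98G for 15 (median -0.77). CD74, the class II invariant chain, fell in T98G from 123, 129 and 121 CPM to 26.3, 27.9 and 26.1 CPM and was at 0.853 to 1.5 CPM in LN229. The peptide transporter TAP1 rose in both lines (0.31 and 0.32), neither called with all 18 libraries.

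**Figure D5:**
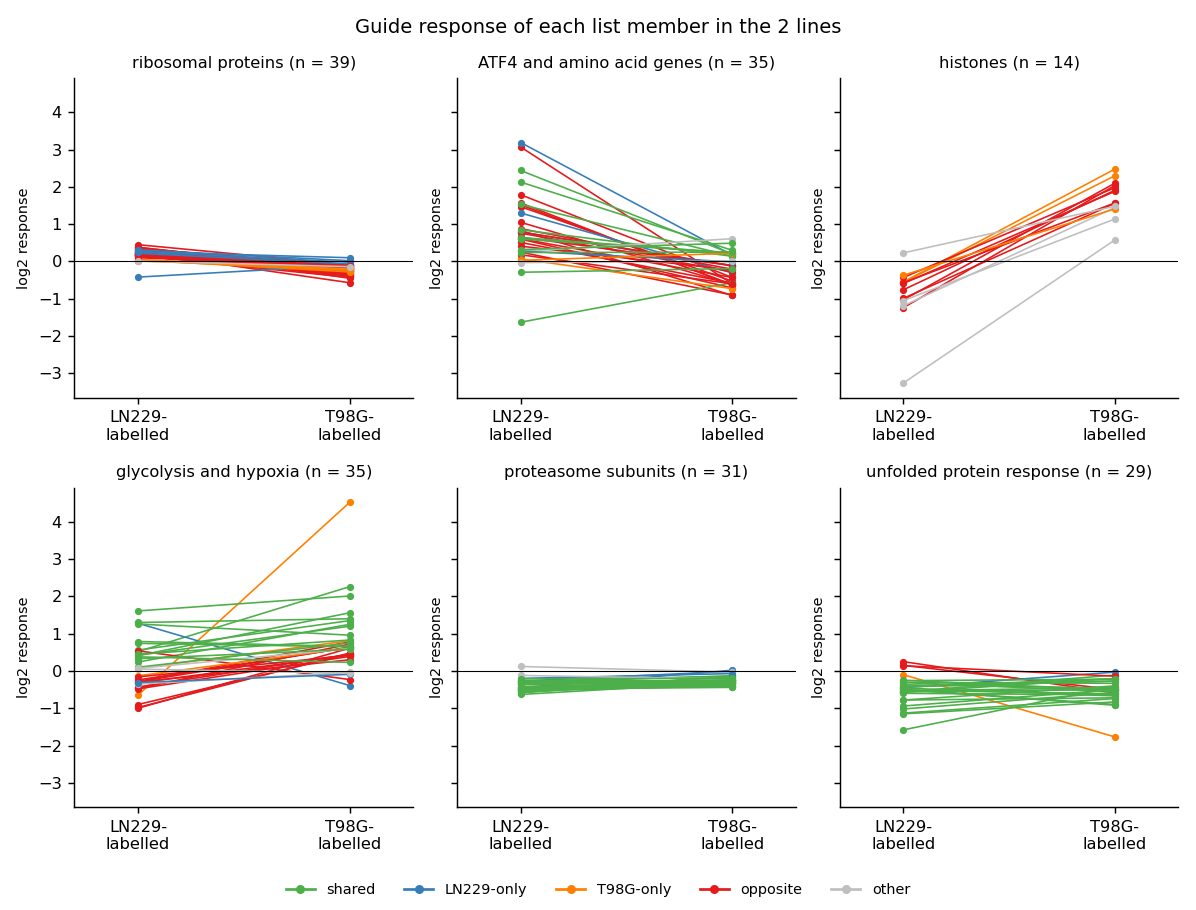
Each line joins the log2 response of a list member in LN229 to that in T98G, coloured by class, for 6 lists. Most ribosomal protein genes step down across 0 and all 14 histone genes step up, while 26 of 31 proteasome subunits and 24 of 29 unfolded protein response genes are shared.

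Matrix and mesenchymal genes rose in LN229 and were divided in T98G. Of 39 measured genes of 41, 26 rose and 3 fell in LN229 (median 0.79), 18 rose and 15 fell in T98G (median 0.10), and the interaction was called lower in T98G for 24 and higher for 4. Fibronectin (FN1) rose alike in both, from 36, 37.8 and 35.6 CPM to 72.3, 68.9 and 67.5 CPM in LN229 and from 1090, 1060 and 1050 CPM to 1950, 2020 and 2160 CPM in T98G. Its responses of 0.93 and 0.94 gave an interaction of 0.01 (SE 0.06, edgeR adjusted p = 0.963). COL8A1, a short-chain collagen, was opposite (1.69 and -1.40, interaction -3.09), as was THBS1, thrombospondin, which fell in T98G from 837, 927 and 963 CPM to 389, 372 and 345 CPM. The gelatinase MMP2 rose by 2.34 in LN229 and by 0.16 in T98G.

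YAP and TEAD targets, 22 in all, showed 10 rises and 5 falls in LN229 (median 0.10) and 3 rises and 15 falls in T98G (median -0.425), with 15 interactions lower and 2 higher in T98G. The ankyrin repeat gene ANKRD1 fell in LN229 from 61.8, 63.6 and 65.6 CPM to 2.49, 3.53 and 3.36 CPM and in T98G from 4.57, 5.54 and 5.97 CPM to 3.89, 2.7 and 3.94 CPM. With sgDDA1 the lines overlapped, and the interaction was 3.74 (SE 0.17, edgeR adjusted p = 2.57e-18). MYOF and AJUBA were opposite (1.06 and -0.53, 0.80 and -0.69). Of 22 measured proneural and progenitor genes of 26, 16 rose and 1 fell in LN229 (median 0.59), and 8 rose and 2 fell in T98G (median 0.25). The intermediate filament gene NES rose in both lines (2.52 and 0.94), and the growth factor receptor PDGFRA did so by 0.99 and 1.19.

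Cholesterol and fatty acid synthesis genes were split by line. Of 32 genes 22 rose and 3 fell in LN229 (median 0.18), 4 rose and 21 fell in T98G (median -0.29), and the interaction was called lower in T98G for 25 and higher for 1 (median -0.45), with 14 opposite genes. When all 18 libraries set the spread, 9 rose in LN229, 10 fell in T98G, 13 interactions were called lower and 1 gene was opposite. INSIG1, which retains SCAP in the endoplasmic reticulum, rose in LN229 from 132, 137 and 123 CPM to 247, 238 and 227 CPM and fell in T98G from 51.8, 54.7 and 56.8 CPM to 36, 36 and 36.7 CPM. Its interaction was -1.45 (SE 0.06, edgeR adjusted p = 1.33e-18), and HMGCS1, of the mevalonate pathway, had -0.97. SREBF1, the gene of the lipogenic factor, rose in both (0.42 and 0.88).

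Of 37 autophagy and lysosome genes 23 fell and 6 rose in LN229 (median -0.285), 14 fell and 10 rose in T98G (median -0.06), and 11 were opposite (3 with all 18 libraries setting the spread). The lysosomal protease gene CTSA fell in LN229 from 51.7, 50.3 and 49.3 CPM to 28.9, 29 and 27.8 CPM and rose in T98G from 185, 170 and 181 CPM to 229, 231 and 234 CPM, with an interaction of 1.19 (SE 0.06, edgeR adjusted p = 9.02e-18). TFEB, the lysosomal transcription factor, rose in both (1.07 and 0.81). Of 27 NRF2 targets and metallothioneins 5 rose and 9 fell in LN229, 14 rose and 7 fell in T98G, and the interaction was called higher in T98G for 16 and lower for 4 (median 0.40), or for 10 and 3 with all 18 libraries setting the spread. AKR1C2, an aldo-keto reductase with close paralogs, rose in T98G alone (-0.05 and 1.16).

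Of 30 p53 targets and apoptosis genes 13 rose and 10 fell in LN229 and 5 rose and 15 fell in T98G, with a median interaction of -0.22. Under the spread of all 18 libraries, 8 rose and 4 fell in LN229, and 3 rose and 10 fell in T98G. For comparison, of 13031 genes with at least 1 CPM in both lines, 4646 rose and 4427 fell in LN229 with the 12 libraries. In T98G 3971 of them rose and 4456 fell. PMAIP1, which encodes the death protein NOXA, rose in LN229 from 109, 108 and 104 CPM to 169, 184 and 173 CPM and fell in T98G from 274, 274 and 257 CPM to 117, 117 and 117 CPM. Its interaction was -1.91 (SE 0.05, edgeR adjusted p = 4.03e-23), and the cell cycle inhibitor CDKN1A had -1.08. Of 28 measured ion channel genes of 30, 19 rose and 0 fell in LN229 (median 0.64), 9 rose and 10 fell in T98G (median -0.34), and the interaction was called lower in T98G for 17 and higher for 0. KCNJ12, an inward rectifier, was at 16.4, 14.9 and 14.8 CPM and then 24.8, 21.1 and 22.9 CPM in LN229, and at 2.19, 2.53 and 2.71 CPM and then 0.796, 0.914 and 0.71 CPM in T98G. The calcium channel CACNA1G rose in both lines (2.65 and 1.03). Among genes with at least 1 CPM in both lines the median T98G response of the ion channel list was 0.16.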

How the data were processed

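Gene expression was measured by RNA sequencing, and the deposited table holds whole-number counts per gene. Counts from 1 to 19 were even in 57.4% to 63.7% of cases per library, for which no label gives a reason, and halved counts were tried as one alternative. Per the labels' protocols, Trizol was used to extract RNA, and Illumina library preparation followed. The labels do not state strandedness. The submitters' processing notes list fastp 0.19.6, STAR 2.4.0 and HTSeq 0.12.4 with GRCh38, and name DESeq2 without a role. Without strand, reads of a gene and its antisense partner cannot be told apart.

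Counts of 46218 gene IDs in 12 libraries were filtered with filterByExpr, which left 23082 genes, scaled by TMM and fitted with 4 group means in edgeR 4.0.16 (R 4.3.3). Each line's response, the interaction and the difference between lines came from that fit, with a threshold of 0.05. SE is that of the log2 value. The procedure was tested on simulated counts. Gene names came from the files, and types and coordinates from GENCODE 29.

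Members, gene lists and tests were chosen with earlier results of these data known. Named genes were DDA1, 4 per class and direction and, per list, up to 3 with a called interaction and up to 2 shared, with at least 1 CPM in both lines. Genes outside that rule were named after their values were seen. Alternatives were DESeq2 1.42.0, other scalings and filters, a test against 1.5-fold, all 18 libraries, thinning, halved counts, a replicate block, each library left out, and GC and length offsets, the last chosen after seeing the data.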

Additional observations from a re-analysis of the deposited data

Results flagged for a closer look

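The guide response differed between LN229 and T98G, by the test of the interaction, for DDA1 and for 24 genes named by class. Each value is the T98G response minus the LN229 response on the log2 scale, with 3 libraries in each of 4 groups. For DDA1 it was 0.33.

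Among genes called in LN229 and not in T98G, the interaction was -2.7 for HES7, -2.63 for HLA-DPA1, -2.63 for ELFN2 and -2.54 for COL16A1, which rose in LN229. It was 0.99 for CYP27B1, 0.96 for NAGPA, 0.93 for GTF2IRD2B and 0.92 for POMZP3, which fell there.

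Among genes called in T98G and not in LN229, it was 2.61 for ADGRV1, 2.57 for SLC6A15, 2.18 for PNPLA7 and 2.13 for PCDH7, which rose in T98G. It was -3.5 for TMEM200C, -2.67 for TFPI2, -2.47 for RASGRP3 and -2.44 for NR4A3, which fell there.

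Among genes called with opposite signs, it was -4.73 for WNT7B, -4.58 for LSAMP, -4.52 for CD24 and -5.57 for DLX3, which rose in LN229 and fell in T98G. It was 3.28 for H2AC6, 3.13 for H3C10, 2.22 for N4BP2L1 and 2.55 for H2BC4, which fell in LN229 and rose in T98G.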

How the results depend on the processing

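None of the 216 named gene values reversed under the alternatives run. Some list medians changed sign: the COP1-DET1 interaction from -0.222 to 0.19 with 1 CPM in both lines and 0.043 without LN229 sgCon 1, the ion channel T98G response from -0.343 to 0.157 with 1 CPM in both lines, and the glycolysis LN229 response from 0.066 to -0.056 without LN229 sgCon 1. Among the list medians reported here, the other sign changes were in medians close to 0. The endothelial markers, whose medians are not reported above, also changed sign without a filter, with 7 members in place of 4. Their LN229 median went from 0.344 to -0.577 and their interaction median from -0.222 to 0.963. Tested against a 1.5-fold difference, 2135 interactions, 2447 LN229 responses, 1601 T98G responses and 11961 line differences with sgCon were called, with 276 shared, 841 LN229-only, 618 T98G-only and 167 opposite genes. With all 18 libraries setting the spread, 4227 interactions, 7185 LN229 and 5402 T98G responses were called, with 1751 shared, 1746 LN229-only, 1247 T98G-only and 746 opposite genes, of which 741 were opposite with the 12 libraries. The DDA1 interaction was 0.328 and 0.331 under these settings and called under neither. An estimate smaller than 1.5-fold, as here, cannot be called in the 1.5-fold test. The cause with all 18 libraries was not tested. With 1 CPM required in both lines, which leaves fewer genes to test, the lines differed in 11254 genes with sgCon and 11286 with sgDDA1.

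Leaving out each library in turn gave 8421 to 8732 interactions, 10397 to 11853 LN229 and 9204 to 10048 T98G responses, 4011 to 4255 shared, 2550 to 2953 LN229-only, 1842 to 2147 T98G-only and 1981 to 2134 opposite genes. The lines then differed in 17548 to 18373 genes with sgCon and 17784 to 18459 with sgDDA1, and the DDA1 interaction was 0.284 to 0.36. Of 216 named values under 23 settings, 4843 of 4968 kept their call and 125 lost it. Most losses came from 2 settings: 89 of the 216 values lost their call when tested against 1.5-fold, and 22 did with all 18 libraries. A replicate block gave 9083 interaction calls and 2231 opposite genes. Same-numbered libraries correlated at 0.145, 0.05 and 0.052 in LN229 and at -0.003, -0.004 and 0.01 in T98G. Differently numbered libraries correlated at -0.108 to 0.051 in LN229 and at -0.049 to 0.051 in T98G. These values show no pairing by number in T98G. In LN229 the same-numbered values were all positive, and whether the numbers pair libraries there is not known. Low counts limit genes under about 1 CPM, and intervals cover the spread of 3 libraries only.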
